A study of Mus musculus with 8 samples.

Results

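The interferon-stimulated genes are transcripts that cells raise after they sense an interferon, and 39 of them were followed in mouse embryonic fibroblasts (MEFs) given 1 of 3 small molecules. The genes were taken by symbol from a list, and each matched 1 row of the deposited table of 50578 genes. The study screened small molecules computationally for the ability to move one cell type toward another and sequenced RNA from MEFs given 3 of its candidates. All cultures were wild type, and by the study's methods the cells were isolated from E13.5 embryos of C57BL/6J mice and plated at an early passage. The MEF group of 2 libraries was the untreated control. The treated groups, with 2 libraries each, received carbidopa (an inhibitor of aromatic L-amino acid decarboxylase), CHIR-99021 (an inhibitor of the kinase GSK3) or a compound that the labels spell LY-364747 and the methods name as LY-364947 (an inhibitor of the TGF-beta type I receptor kinase). Each was added at 10 µM, starting 2 h after plating, in medium renewed every 3 days. The methods state a length of treatment for the study's PCR assays and none for the sequenced cultures, and they name no vehicle for the controls. No label states that replicates came from separate embryos or cultures, so the p-values below measure the spread between these libraries, which may be technical.

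Interferons bind receptors that signal through JAK kinases to STAT transcription factors. Type I and type III interferons lead to a complex holding STAT2 and IRF9 that binds the interferon-stimulated response element in promoters, whereas interferon gamma acts through the gamma-activated site. Fibroblasts express the type I receptor and can make interferon beta when cytoplasmic sensors meet viral RNA. The proteins of the stimulated genes block viral entry, translation and replication, process antigens and regulate the pathway itself, and many are also expressed at a low level without infection.

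The libraries held 15039566 to 20504338 counts, of which the 39 genes took 13223 to 27845. Between replicates, counts differed by more than sampling noise in every group, with a chi-square per degree of freedom of 4.57 in MEF, 7.86 with LY-364747, 10.0 with CHIR-99021 and 37.9 with carbidopa. Carbidopa replicate 1 stood apart. Over all genes tested, its root mean square log2 difference from carbidopa replicate 2 was 0.515, whereas carbidopa replicate 2 differed from the LY-364747 replicates by 0.408 and 0.37. The interferon-stimulated genes took part in this difference. Of the 37 that could be tested, 29 were higher in carbidopa replicate 1 than in replicate 2, with a median difference of 0.45 on the log2(CPM + 0.1) scale, against 51.4% of all genes tested and a median of 0.01. CPM is the usual count of a gene relative to the size of its library, here the effective size after scaling by the trimmed mean of M values. The corresponding counts of members higher in replicate 1 were 22 of 37 for MEF, 26 of 37 for CHIR-99021 and 26 of 37 for LY-364747. Most counts of called members in comparisons with carbidopa, and their calls that changed, are therefore given with and without replicate 1, as are most list counts. For most fits that leave out a library, the share of all genes called is not given here. Member counts from such fits show only how far the calls moved. Counts across comparisons and of promoter matches rest on all libraries.

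Promoter windows of 300 bases (250 before the start site and 50 from it on) were taken from RefSeq on build GRCm38.p6 and matched 31 of the 39 genes by symbol. The core of the interferon-stimulated response element was searched as GAAANNGAAA on the strand of the gene or TTTCNNTTTC, which is the same word on the opposite strand, with overlapping matches counted separately. It was present in 15 of the 31 genes (48.4%) and in 3.99% of the 27025 genes in the RefSeq table. The gamma-activated site, searched as TTCNNNGAA (identical on both strands), was present in 10 of the 31 genes (32.3%) and in 9.55% of all genes. Isg15 held 3 overlapping copies of the response element core that started 78, 72 and 66 bases before the start site. The windows printed here belong first to 3 genes of 1 cluster on chromosome 19 whose transcripts went in different directions (Ifit2, Ifit3 and Ifit1). The others belong to 3 genes that fell with CHIR-99021 under every alternative tried and hold the core, for which they were chosen (Gbp2, Ifitm3 and Stat2). Other genes fell as far or further and hold no match to the core, such as Oasl2 and Psmb8. All are written 5′ to 3′ on the strand of the gene, and capitals mark the response element core.
Ifit2 (chr19:34550444-34550743, plus strand): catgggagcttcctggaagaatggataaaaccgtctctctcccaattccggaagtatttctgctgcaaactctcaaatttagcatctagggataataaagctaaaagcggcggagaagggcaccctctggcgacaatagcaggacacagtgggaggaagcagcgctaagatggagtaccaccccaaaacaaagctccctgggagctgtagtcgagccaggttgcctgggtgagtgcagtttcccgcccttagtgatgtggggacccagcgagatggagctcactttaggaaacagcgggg
Ifit3 (chr19:34583279-34583578, plus strand): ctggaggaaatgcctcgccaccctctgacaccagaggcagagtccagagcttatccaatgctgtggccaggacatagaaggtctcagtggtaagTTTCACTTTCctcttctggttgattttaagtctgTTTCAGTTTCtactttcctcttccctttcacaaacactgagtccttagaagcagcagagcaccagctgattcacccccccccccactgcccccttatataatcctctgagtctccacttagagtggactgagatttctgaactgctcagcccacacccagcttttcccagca
Ifit1 (chr19:34640639-34640938, plus strand): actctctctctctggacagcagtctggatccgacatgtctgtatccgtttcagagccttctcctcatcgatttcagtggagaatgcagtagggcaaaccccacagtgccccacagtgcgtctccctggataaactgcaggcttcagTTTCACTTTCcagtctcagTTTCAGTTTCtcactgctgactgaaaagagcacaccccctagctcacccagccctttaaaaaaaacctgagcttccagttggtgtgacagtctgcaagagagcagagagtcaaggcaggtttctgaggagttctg
Gbp2 (chr3:142620413-142620712, plus strand): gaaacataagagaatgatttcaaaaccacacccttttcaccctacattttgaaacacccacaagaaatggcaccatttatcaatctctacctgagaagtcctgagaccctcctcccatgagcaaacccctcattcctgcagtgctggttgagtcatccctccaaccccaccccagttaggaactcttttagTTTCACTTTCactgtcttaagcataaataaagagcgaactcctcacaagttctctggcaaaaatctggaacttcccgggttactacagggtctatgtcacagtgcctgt
Ifitm3 (chr7:141010695-141010994, minus strand): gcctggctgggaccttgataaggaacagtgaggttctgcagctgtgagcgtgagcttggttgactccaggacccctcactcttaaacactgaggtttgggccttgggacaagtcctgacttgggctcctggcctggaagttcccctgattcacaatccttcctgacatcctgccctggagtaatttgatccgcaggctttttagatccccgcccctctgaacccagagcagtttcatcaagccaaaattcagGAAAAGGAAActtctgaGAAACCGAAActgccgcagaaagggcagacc
Stat2 (chr10:128270248-128270547, plus strand): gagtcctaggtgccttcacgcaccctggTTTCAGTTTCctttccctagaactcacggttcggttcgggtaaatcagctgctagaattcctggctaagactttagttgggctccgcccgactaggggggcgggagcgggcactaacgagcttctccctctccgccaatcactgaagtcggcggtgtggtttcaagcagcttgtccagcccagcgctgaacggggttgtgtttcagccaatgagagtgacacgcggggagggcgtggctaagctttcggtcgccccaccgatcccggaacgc

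In Ifit3 the core matched at 156 and 122 bases before the start site, and in Ifit1 at 104 and 85 bases before it. Gbp2 held 1 match 59 bases before the start site and Stat2 held 1 match 222 bases before it. In Ifitm3 both matches lay after the start site, from bases 3 and 20. The letters were not found in either of the windows of Ifit2, which says only that this exact word is not in these bases. A match is a description of letters and was not read as a bound site.

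**Figure D1:**
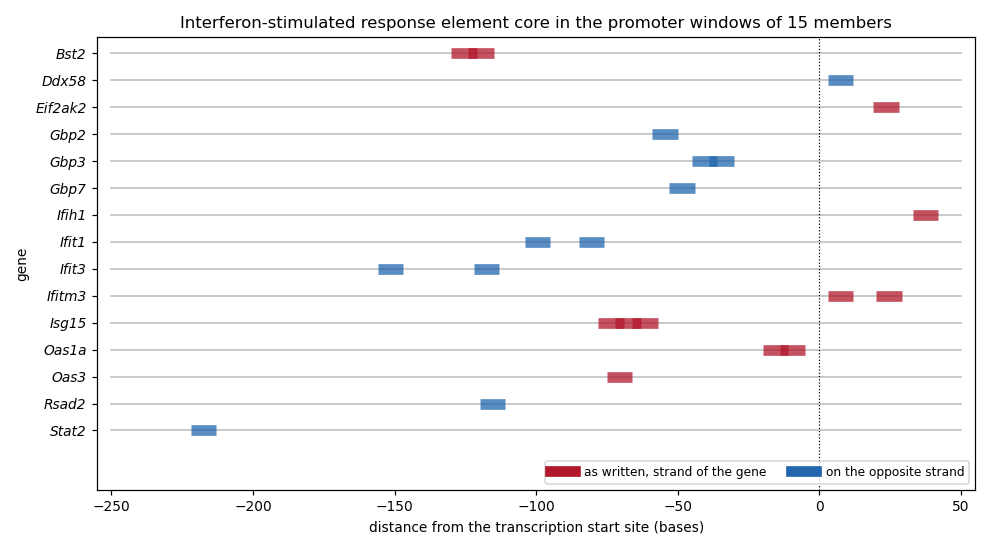
Position of the response element core in the 15 promoter windows that hold it. The horizontal axis is the distance from the transcription start site in bases, the grey line is the window and each bar is 1 match, coloured by strand. Matches lie between 222 bases before the start site (Stat2) and 33 bases into the transcript (Ifih1), and those of Bst2, Gbp3, Isg15 and Oas1a overlap.

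The interferon-stimulated genes did not move as 1 block in any treatment. Ifit2 rose and Stat2, Parp9, Psmb8 and Oas2 fell with each compound, whereas Ifit3 rose with carbidopa and LY-364747 and fell with CHIR-99021. These are bulk cultures, in which fewer cells of a type and less RNA per cell cannot be told apart, and the summed level of 19 macrophage markers was also lower in each treatment (118 to 458 CPM, against 1546 to 1596 in MEF). Their part in the lower members was not tested. Of the 39 genes, 37 passed the filter on low counts. Mx1 (0 to 2 reads per library) and Oas3 (2 to 9 reads) did not. Of the 37, 18 were called in no comparison with MEF, 3 were higher in all 3 comparisons (Ifit2, Oasl1 and Tap1), 4 were lower in all 3 (Stat2, Parp9, Psmb8 and Oas2), and 1 was called in both directions (Ifit3). Oasl1 passed the filter through the treated libraries alone, so it had to be higher in them. Its values are given as a description with no test, and counts are also given without it. The 3 comparisons share the same MEF libraries and are not independent of each other. The shares of all genes with the same patterns of calls were not counted, so these counts only describe the members. Across genes, levels per kilobase of exon averaged over all libraries ran from 263 CPM per kb for Ifitm3, 56.5 for Ifit3, 36.1 for Ifit2 and 24.4 for Bst2 down to 0.0413 for Oas3 and 0.00896 for Mx1.

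With carbidopa, 6 members (16.2% of the 37) were higher and 5 (13.5%) were lower than in MEF, while among all 15154 genes tested 18.0% were higher and 19.7% lower, by edgeR's quasi-likelihood test at a Benjamini-Hochberg adjusted p under 0.05. Without Oasl1, 5 of 36 (13.9%) were higher. With 37 members, shares this near to those of all genes show no shortfall, and the counts below changed with the library left out. The median log2 fold change of the members was -0.02, against 0.037 for all genes, and the members ran from -1.55 (Psmb8) to 2.71 (Oasl1). Without carbidopa replicate 1, 3 members were higher and 6 lower with a median of -0.23, and without carbidopa replicate 2 the counts were 10 and 6 with a median of 0.16. Without MEF replicate 1 they were 3 and 1, and without MEF replicate 2 they were 3 and 3.

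With LY-364747, 4 members (10.8%) were higher and 7 (18.9%) lower, against 13.7% and 17.2% of all genes. Without Oasl1, 3 of 36 (8.33%) were higher. The median of the members was -0.35, against 0.028 for all genes. Leaving out MEF replicate 1 gave 2 higher and 3 lower, and leaving out MEF replicate 2 gave 2 and 4. Without LY-364747 replicate 1, 2 were higher, and without LY-364747 replicate 2 the counts were 2 and 3.

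With CHIR-99021, 3 members (8.11%) were higher and 13 (35.1%) lower, against 18.7% and 20.1% of all genes. Without Oasl1, 2 of 36 (5.56%) were higher. The median of the members was -0.52, against 0.043 for all genes, and 29 of the 37 had a log2 fold change below 0. The count of lower members lay between 9 and 16 when any 1 library was left out, and the count of higher members was 1 without MEF replicate 2. Among the 13 lower members, 5 were called lower in this comparison and not called in the other comparisons with MEF (Gbp2, Ifitm3, Herc6, Irf1 and Parp14). The share of all genes with that pattern was not counted.

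**Figure D2:**
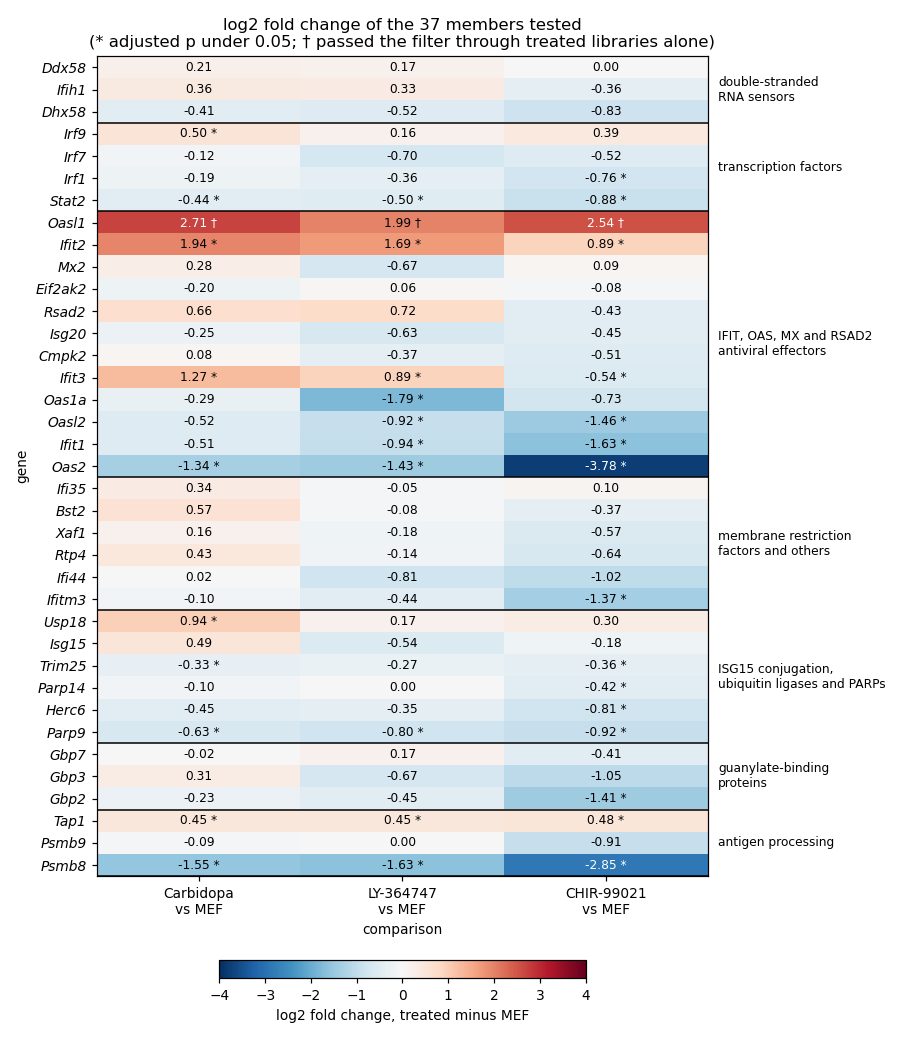
Log2 fold change of the 37 members tested (rows, grouped by role) in each comparison with MEF (columns); the colour and the printed value give treated minus MEF, an asterisk marks an adjusted p under 0.05 by edgeR's quasi-likelihood test, and a dagger marks Oasl1, which passed the filter through treated libraries alone. The CHIR-99021 column holds the most lower values, with 29 of 37 below 0, and Ifit2 and Tap1 are higher in every column. Oasl1 is too, but the filter fixed its direction.

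The double-stranded RNA sensors Ifih1 (MDA5), Ddx58 (RIG-I) and Dhx58 (LGP2), which detect viral RNA in the cytoplasm, had fold changes against MEF that did not pass the test. Ifih1 was at 27.9 and 21.6 CPM in MEF, 31.6 and 31.8 with carbidopa, 36.5 and 25.5 with LY-364747, and 19.5 and 19.1 with CHIR-99021. Its CHIR-99021 libraries were the lowest of the 8, while the MEF libraries overlapped those with LY-364747. Against carbidopa, CHIR-99021 lowered Ifih1 by a log2 fold change of -0.72 (SE 0.18, edgeR adjusted p = 0.0227), and against LY-364747 by -0.69 (SE 0.18, edgeR adjusted p = 0.0284). Both calls were lost without either CHIR-99021 replicate (edgeR adjusted p = 0.139 and 0.118 against carbidopa, 0.166 and 0.126 against LY-364747), and the second also without LY-364747 replicate 1 (log2 fold change -0.41, edgeR adjusted p = 0.277). Ddx58 lay between 86.7 and 110 CPM in every library, with log2 fold changes of 0.21, 0.17 and 0.00 for carbidopa, LY-364747 and CHIR-99021. Dhx58, with 14 to 27 reads per library, had values of -0.41, -0.52 and -0.83.

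Among the transcription factors, Stat2, the STAT that carries the activation domain of the type I interferon complex, fell with all 3 compounds. Stat2 was at 96.0 and 96.4 CPM in MEF, 72.3 and 69.3 with carbidopa, 70.4 and 65.3 with LY-364747, and 54.1 and 50.6 with CHIR-99021. The MEF libraries were the highest and the CHIR-99021 libraries the lowest, and neither group overlapped the rest. The log2 fold changes against MEF were -0.44 with carbidopa (SE 0.10, edgeR adjusted p = 0.00529), -0.50 with LY-364747 (SE 0.10, edgeR adjusted p = 0.00265) and -0.88 with CHIR-99021 (SE 0.10, edgeR adjusted p = 6.14e-05), and these were called under every alternative tried. Irf9, its DNA-binding partner, was at 22.8 and 24.5 CPM in MEF, 38.8 and 27.9 with carbidopa, 27.1 and 25.6 with LY-364747, and 32.2 and 29.7 with CHIR-99021. All 6 treated libraries were above both MEF libraries. Carbidopa alone passed the test (log2 fold change 0.50, SE 0.15, edgeR adjusted p = 0.0286), and the value fell to 0.24 without carbidopa replicate 1 (edgeR adjusted p = 0.138). The Irf9 call was also lost without MEF replicate 1 or 2 (edgeR adjusted p = 0.162 and 0.0977) and with the 2 groups fitted alone (0.0748). Irf1, a factor induced by interferon gamma, was at 15.2 and 13.4 CPM in MEF and 8.75 and 8.07 with CHIR-99021, with 14.5 and 10.6 for carbidopa and 10.3 and 12.0 for LY-364747. The CHIR-99021 libraries lay below all others, and Irf1 fell by 0.76 on the log2 scale against MEF (SE 0.19, edgeR adjusted p = 0.00844), a call lost without MEF replicate 1 (edgeR adjusted p = 0.0675) or CHIR-99021 replicate 2 (0.0575). Irf7, which amplifies interferon production, stayed between 1.92 and 4.47 CPM over the 8 libraries and passed no test.

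The IFIT proteins bind viral RNA and block its translation. Their genes lie in 1 cluster on chromosome 19 (Ifit2 at chr19:34550694-34576419, Ifit3 at chr19:34583531-34588731 and Ifit1 at chr19:34640871-34650009, GRCm38). Ifit2 was at 55.8 and 58.6 CPM in MEF, 221 and 218 with carbidopa, 193 and 176 with LY-364747, and 98.5 and 113 with CHIR-99021. Every treated library was above both MEF libraries, and the carbidopa, LY-364747 and CHIR-99021 libraries followed each other without overlap. Ifit2 rose 3.84-fold with carbidopa (log2 1.94, SE 0.11, edgeR adjusted p = 4.40e-07), 3.23-fold with LY-364747 (log2 1.69, SE 0.11, edgeR adjusted p = 1.19e-06) and 1.85-fold with CHIR-99021 (log2 0.89, SE 0.11, edgeR adjusted p = 1.08e-04). These calls were made under every alternative tried.

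Ifit3 was at 66.5 and 66.3 CPM in MEF, 183 and 137 with carbidopa, 121 and 124 with LY-364747, and 50.1 and 41.1 with CHIR-99021. The carbidopa and LY-364747 libraries were above MEF and the CHIR-99021 libraries below it. Ifit3 rose 2.41-fold with carbidopa (log2 1.27, SE 0.15, edgeR adjusted p = 7.84e-05) and 1.85-fold with LY-364747 (log2 0.89, SE 0.15, edgeR adjusted p = 9.67e-04), called under every alternative. With CHIR-99021 it fell by 0.54 on the log2 scale (SE 0.15, edgeR adjusted p = 0.0149), a call lost without MEF replicate 1 or 2 (edgeR adjusted p = 0.0762 and 0.0718) or without CHIR-99021 replicate 2 (0.127). Of the 75-base words in the exons of Ifit3, 41.1% also occur in other genes, all of them in its near copy Ifit3b (63 to 169 reads against 708 to 3883 for Ifit3). How reads that match both were counted is not given in the sources used here, so the split between these genes is uncertain.

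Ifit1, the third member in this cluster, was at 11.9 and 13.2 CPM in MEF, 10.8 and 6.81 with carbidopa, 7.52 and 5.54 with LY-364747, and 3.74 and 4.35 with CHIR-99021. The MEF libraries were the highest and the CHIR-99021 libraries the lowest. Ifit1 fell by 0.94 on the log2 scale with LY-364747 (SE 0.24, edgeR adjusted p = 0.0127) and by 1.63 with CHIR-99021 (SE 0.25, edgeR adjusted p = 6.02e-04), while its carbidopa value of -0.51 did not pass. The CHIR-99021 call was made under every alternative, and the LY-364747 call was lost without MEF replicate 2 (edgeR adjusted p = 0.0848) or LY-364747 replicate 2 (0.116). Thus in the same CHIR-99021 libraries Ifit2 was above MEF, while Ifit3 and Ifit1 of the same cluster were below it.

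**Figure D3:**
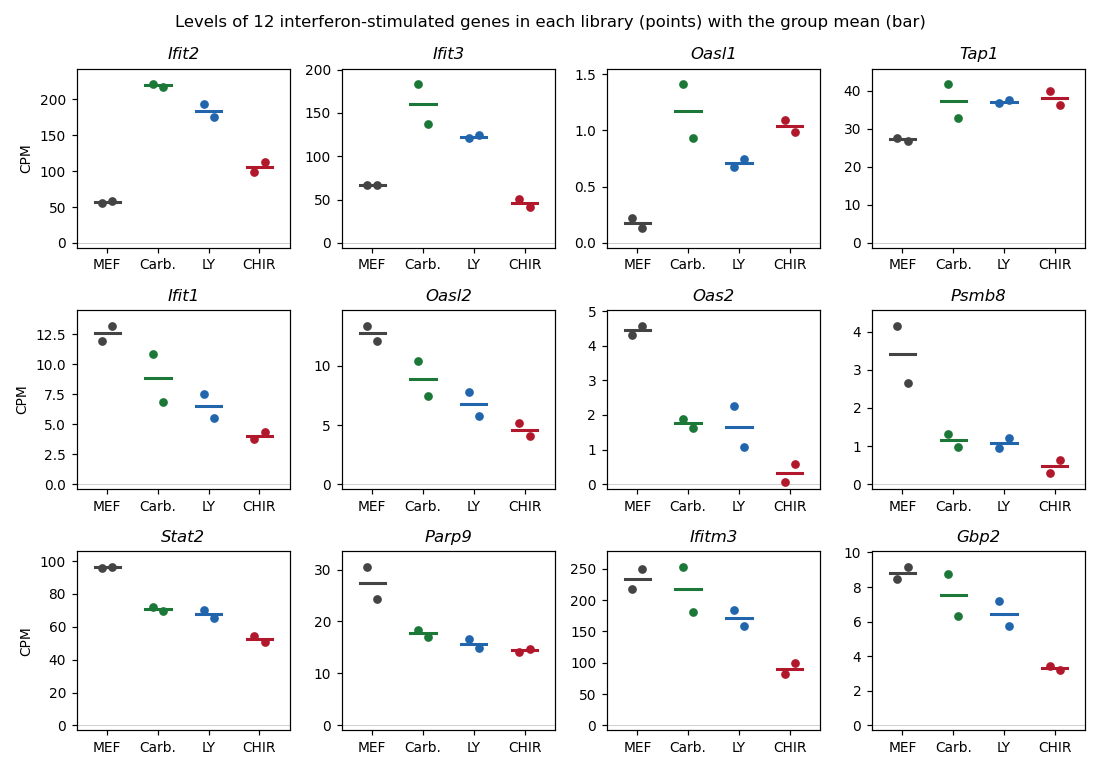
CPM of 12 members in each library, with 1 point per library and a bar at the mean of the 2 libraries in each group; Carb., LY and CHIR stand for carbidopa, LY-364747 and CHIR-99021. Ifit2 and Oasl1 lie above MEF in all treated libraries, Ifit3 lies above MEF with carbidopa and LY-364747 and below it with CHIR-99021, and the CHIR-99021 libraries are the lowest for Ifit1, Oasl2, Oas2, Psmb8, Stat2, Parp9, Ifitm3 and Gbp2.

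The oligoadenylate synthetase family makes a second messenger that activates RNase L, and Oasl1 is a relative that lacks that activity. Oasl1 (chr5:114923240-114937915), which represses translation of Irf7 mRNA, had 3 and 2 reads in MEF, 30 and 20 with carbidopa, 12 and 14 with LY-364747, and 19 and 17 with CHIR-99021. Every treated library had more reads than either MEF library, though all counts were low. The ratio of pooled, depth-scaled reads to MEF was 6.78 with carbidopa (exact 95% interval 2.72 to 21.8), 4.11 with LY-364747 (1.55 to 13.7) and 6.02 with CHIR-99021 (2.36 to 19.7), intervals that cover counting error only. The fitted log2 fold changes, which depend on a prior count at these reads, were 2.71, 1.99 and 2.54.

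Oasl2, the neighbour of Oasl1 on chromosome 5 (chr5:114896936-114912234), was at 13.4 and 12.1 CPM in MEF, 10.4 and 7.42 with carbidopa, 7.75 and 5.75 with LY-364747, and 5.18 and 4.06 with CHIR-99021. Its treated libraries all lay below both MEF libraries. Oasl2 fell by 0.92 on the log2 scale with LY-364747 (SE 0.22, edgeR adjusted p = 0.00978) and by 1.46 with CHIR-99021 (SE 0.23, edgeR adjusted p = 6.85e-04), and its carbidopa value of -0.52 did not pass. The CHIR-99021 call was made under every alternative, and the LY-364747 call was lost without MEF replicate 1 (edgeR adjusted p = 0.0687) or LY-364747 replicate 2 (0.0969). Oas2 (chr5:120730333-120749853) was at 4.31 and 4.58 CPM in MEF, 1.88 and 1.63 with carbidopa, 2.25 and 1.07 with LY-364747, and 0.0576 and 0.580 with CHIR-99021, the last of these resting on 1 and 10 reads. The groups did not overlap with MEF, and CHIR-99021 was the lowest. The log2 fold change of Oas2 was -1.34 with carbidopa (SE 0.44, edgeR adjusted p = 0.0359), -1.43 with LY-364747 (SE 0.45, edgeR adjusted p = 0.0349) and -3.78 with CHIR-99021 (SE 0.58, edgeR adjusted p = 5.78e-04). Leaving out CHIR-99021 replicate 1 gave -2.92 and leaving out its replicate 2 gave -6.10, both called. The carbidopa call was lost when any 1 MEF or carbidopa library was left out (edgeR adjusted p between 0.0502 and 0.153), and the LY-364747 call without either MEF replicate (edgeR adjusted p = 0.118 and 0.153) or LY-364747 replicate 2 (0.226).

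Oas1a was at 2.08 and 2.32 CPM in MEF, 2.21 and 1.40 with carbidopa, 0.954 and 0.320 with LY-364747, and 1.50 and 1.16 with CHIR-99021. The LY-364747 libraries were the lowest, and carbidopa overlapped MEF. Oas1a fell by 1.79 on the log2 scale with LY-364747 (SE 0.47, edgeR adjusted p = 0.0153). The call was lost without MEF replicate 1 or 2 (edgeR adjusted p = 0.0551 and 0.0872) or LY-364747 replicate 2 (0.118), and the value was -2.76 without LY-364747 replicate 1. In addition, 47.6% of the 75-base exon words of Oas1a are shared with Oas1g (0 to 7 reads per library, the 7 in LY-364747 replicate 2), so its counts are uncertain. The remaining effectors, Mx2, Rsad2, Cmpk2, Eif2ak2 and Isg20, had log2 fold changes between -0.67 and 0.72 against MEF that did not pass the test. Of these, Eif2ak2, the kinase PKR that stops translation, was well counted (1259 to 1907 reads per library) with values of -0.20, 0.06 and -0.08.

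Ifitm3, a membrane protein that hinders fusion of viruses with endosomes and the most abundant member per kilobase, was at 218 and 249 CPM in MEF, 253 and 181 with carbidopa, 184 and 159 with LY-364747, and 82.1 and 99.0 with CHIR-99021. The CHIR-99021 libraries were below all others, and the carbidopa libraries spanned both MEF values. Ifitm3 fell by 1.37 on the log2 scale with CHIR-99021 (SE 0.17, edgeR adjusted p = 1.21e-04) under every alternative tried, against values of -0.10 for carbidopa and -0.44 for LY-364747 that did not pass. Bst2 (tetherin, which holds budding virions at the cell surface), Rtp4, Ifi35, Ifi44 and Xaf1 had values from -1.02 to 0.57 that did not pass in any comparison with MEF. Gbp2, a GTPase that attacks the membranes around intracellular pathogens, was at 8.48 and 9.16 CPM in MEF, 8.76 and 6.30 with carbidopa, 7.18 and 5.75 with LY-364747, and 3.45 and 3.19 with CHIR-99021. As with Ifitm3, the CHIR-99021 libraries stood below the other 6. Gbp2 fell by 1.41 on the log2 scale with CHIR-99021 (SE 0.22, edgeR adjusted p = 7.09e-04), again under every alternative. Its relatives Gbp3 (14 to 101 reads) and Gbp7 had CHIR-99021 values of -1.05 and -0.41 that did not pass.

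Isg15 is a ubiquitin-like protein that is joined to other proteins, Herc6 is its main ligase in the mouse and Usp18 removes it and restrains the type I receptor. Isg15 itself was at 3.42 and 1.81 CPM in MEF, 5.46 and 1.82 with carbidopa, 1.96 and 1.60 with LY-364747, and 2.76 and 1.80 with CHIR-99021. Each treated group overlapped MEF, and carbidopa replicate 1 was the only library above 3.42. Usp18 was at 2.83 and 2.71 CPM in MEF, 6.50 and 4.11 with carbidopa, 3.20 and 3.04 with LY-364747, and 3.11 and 3.71 with CHIR-99021. The carbidopa libraries were the highest, replicate 1 above replicate 2. Usp18 rose by 0.94 with carbidopa on the log2 scale (SE 0.27, edgeR adjusted p = 0.0193). Without carbidopa replicate 1 the value was 0.57 (edgeR adjusted p = 0.117), and the call was also lost without MEF replicate 1 or 2 (0.0854 and 0.11), with the 2 groups fitted alone (0.0502) and in DESeq2 (0.06).

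Parp9, which with its partner Dtx3l modifies histones and other proteins, was at 30.5 and 24.3 CPM in MEF, 18.4 and 17.0 with carbidopa, 16.6 and 14.9 with LY-364747, and 14.1 and 14.8 with CHIR-99021. Every treated library was below both MEF libraries. Parp9 fell by 0.63 on the log2 scale with carbidopa (SE 0.14, edgeR adjusted p = 0.00646), by 0.80 with LY-364747 (SE 0.14, edgeR adjusted p = 0.00174) and by 0.92 with CHIR-99021 (SE 0.14, edgeR adjusted p = 6.69e-04). The carbidopa call was lost without MEF replicate 1 (edgeR adjusted p = 0.0827), and the others held under every alternative. Its exons share 458 bases with those of Dtx3l, and 6.63% of its 75-base words occur there too. Herc6 was at 12.0 and 11.0 CPM in MEF, 7.63 and 9.24 with carbidopa, 9.43 and 8.63 with LY-364747, and 6.33 and 6.85 with CHIR-99021. Of its exon bases, 13.7% overlap those of Gm45193 on the same strand, so its counts are uncertain. All treated libraries were below MEF, and CHIR-99021 passed the test (log2 fold change -0.81, SE 0.17, edgeR adjusted p = 0.0038) under every alternative. Trim25, the ubiquitin ligase that acts on RIG-I, was at 113 and 107 CPM in MEF and 81.5 to 93.9 in the treated libraries. It fell by 0.33 on the log2 scale with carbidopa (SE 0.10, edgeR adjusted p = 0.0282) and by 0.36 with CHIR-99021 (SE 0.10, edgeR adjusted p = 0.0175), small differences whose calls were fragile. The carbidopa call was lost in every fit that left out a library except without carbidopa replicate 2 (edgeR adjusted p between 0.0513 and 0.178), and the CHIR-99021 call without any of the MEF or CHIR-99021 libraries (between 0.0721 and 0.133). Parp14 had a CHIR-99021 value of -0.42 (SE 0.14, edgeR adjusted p = 0.0391) that was lost without either MEF replicate (edgeR adjusted p = 0.0939 and 0.212), either CHIR-99021 replicate (0.2 and 0.0977) or either LY-364747 replicate (0.0549 and 0.0572), and in DESeq2 (0.0587).

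The antigen processing members lie within 1 stretch of the major histocompatibility complex on chromosome 17 (Psmb9 at chr17:34181987-34187764, Tap1 at chr17:34187553-34197225 and Psmb8 at chr17:34197721-34201454). Psmb8 and Psmb9 are subunits of the immunoproteasome and Tap1 is part of the transporter that carries peptides into the endoplasmic reticulum. Psmb8 was at 4.16 and 2.65 CPM in MEF, 1.32 and 0.980 with carbidopa, 0.954 and 1.22 with LY-364747, and 0.288 and 0.638 with CHIR-99021, from 5 to 56 reads per library. Of its exon bases, 14.7% overlap those of Gm20496 on the opposite strand, so its counts are uncertain. All treated libraries were below MEF. Psmb8 fell by 1.55 on the log2 scale with carbidopa (SE 0.38, edgeR adjusted p = 0.0092), by 1.63 with LY-364747 (SE 0.39, edgeR adjusted p = 0.00893) and by 2.85 with CHIR-99021 (SE 0.44, edgeR adjusted p = 6.10e-04). The carbidopa and LY-364747 calls were lost without MEF replicate 1 (edgeR adjusted p = 0.104 and 0.103), and the latter also without LY-364747 replicate 1 (0.0746). Tap1 went the other way, at 27.7 and 26.8 CPM in MEF, 41.7 and 32.8 with carbidopa, 36.9 and 37.5 with LY-364747, and 39.9 and 36.2 with CHIR-99021. Each treated library was above both MEF libraries. Tap1 rose by 0.45 on the log2 scale with carbidopa (SE 0.13, edgeR adjusted p = 0.0223), by 0.45 with LY-364747 (SE 0.13, edgeR adjusted p = 0.0262) and by 0.48 with CHIR-99021 (SE 0.13, edgeR adjusted p = 0.0159). These small differences were not stable, since each call was lost without MEF replicate 1 or 2 (edgeR adjusted p between 0.075 and 0.152). The carbidopa call was also lost without carbidopa replicate 1 (log2 0.27, edgeR adjusted p = 0.0811), the LY-364747 call without either LY-364747 replicate (0.0931 and 0.127) and the CHIR-99021 call without CHIR-99021 replicate 1 (0.117). The exons of Tap1 and Psmb9 overlap by 212 bases on opposite strands, and whether the counting used strand is not given in the sources used here.

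The response element core was found among members not called, among members called lower and, of those called higher, in Ifit3 alone. The groups are small, and a relation of the core to the direction of change was not tested. Of the 10 members that were lower with CHIR-99021 and had a promoter window, 5 held it (Gbp2, Ifit1, Ifit3, Ifitm3 and Stat2), as did 9 of the 17 that were not called. The windows of the 3 that were higher (Ifit2, Oasl1 and Tap1) held none. Oasl1 is counted among the higher members with a window in each comparison, although the filter fixed its direction. With carbidopa, 1 of the 5 higher members with a window (Ifit3), 1 of the 3 lower (Stat2) and 12 of the 22 not called held it. With LY-364747 these were 1 of 4 (Ifit3), 3 of 5 (Ifit1, Oas1a and Stat2) and 10 of 21.

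When the treatments were compared with each other, CHIR-99021 had the lowest levels of many of these genes. Against carbidopa, CHIR-99021 lowered 12 of the 37 members (32.4%), against 8.08% of all genes, and raised 0 of the 37, against 6.62% of all genes, by edgeR (0 higher at an unadjusted p under 0.05 and 0 in DESeq2). The members' median was -0.59, against -0.001 for all genes. Ifit3 fell by 1.81 on the log2 scale (SE 0.15, edgeR adjusted p = 5.65e-05), Ifit2 by 1.05 (SE 0.11, edgeR adjusted p = 1.69e-04), Ifitm3 by 1.26 (SE 0.17, edgeR adjusted p = 8.85e-04) and Gbp2 by 1.18 (SE 0.22, edgeR adjusted p = 0.00616). Stat2 fell by 0.44 (SE 0.10, edgeR adjusted p = 0.0147), Ifit1 by 1.12 (SE 0.25, edgeR adjusted p = 0.0153), Oasl2 by 0.95 (SE 0.23, edgeR adjusted p = 0.0219) and Oas2 by 2.44 (SE 0.62, edgeR adjusted p = 0.0264). The library values given above show that both CHIR-99021 libraries were below both carbidopa libraries for each of these 8 genes. The calls for Ifit3, Ifit2 and Ifitm3 were made under every alternative, while those for Gbp2, Stat2, Ifit1 and Oasl2 were lost without either CHIR-99021 replicate (edgeR adjusted p between 0.0516 and 0.145), Oasl2 also without carbidopa replicate 1 (0.0625), and Oas2 without CHIR-99021 replicate 1 (-1.58, 0.166) or either MEF replicate (0.0533 and 0.0524). Without CHIR-99021 replicate 2 the Oas2 value was -4.77.

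Ifih1, described above, and Bst2, Xaf1 and Rtp4 completed the 12, and the calls of the last 3 were fragile. Bst2 was at 40.3 and 21.9 CPM with carbidopa and 17.3 and 15.2 with CHIR-99021, a log2 fold change of -0.94 (SE 0.25, edgeR adjusted p = 0.0324) that became -0.43 without carbidopa replicate 1 (edgeR adjusted p = 0.1). Rtp4 went from -1.07 (SE 0.32, edgeR adjusted p = 0.0499) to -0.50 (edgeR adjusted p = 0.242), and Xaf1 from -0.72 (SE 0.20, edgeR adjusted p = 0.0381) to -0.57 (edgeR adjusted p = 0.0946). All 3 calls were also lost without either CHIR-99021 replicate (edgeR adjusted p between 0.142 and 0.212), without either LY-364747 replicate (between 0.0531 and 0.0736) and with the 2 groups fitted alone (between 0.0549 and 0.0967). Those of Rtp4 and Xaf1 were lost as well without either MEF replicate (edgeR adjusted p between 0.0547 and 0.0843) and in DESeq2 (0.0517 and 0.0756). Over the 37 genes, leaving out CHIR-99021 replicate 1 or 2 left 3 or 4 lower, leaving out carbidopa replicate 1 left 9, and leaving out carbidopa replicate 2 gave 19 lower and 1 higher.

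Against LY-364747, CHIR-99021 lowered 7 members (18.9%), against 7.69% of all genes, and raised 0 of the 37, against 6.45% of all genes (0 higher at an unadjusted p under 0.05 and 0 in DESeq2). Ifit3 fell by 1.43 on the log2 scale (SE 0.15, edgeR adjusted p = 2.19e-04), Ifit2 by 0.80 (SE 0.10, edgeR adjusted p = 8.59e-04) and Ifitm3 by 0.92 (SE 0.17, edgeR adjusted p = 0.0052). Gbp2 fell by 0.96 (SE 0.22, edgeR adjusted p = 0.0189), Stat2 by 0.37 (SE 0.10, edgeR adjusted p = 0.0292) and Oas2 by 2.35 (SE 0.64, edgeR adjusted p = 0.0341), and Ifih1 was described above. Both CHIR-99021 libraries were below both LY-364747 libraries for each of the 7. Ifit3 and Ifit2 were called under every alternative. The Ifitm3 call was lost without CHIR-99021 replicate 1 or LY-364747 replicate 1 (edgeR adjusted p = 0.0812 and 0.0601), and that of Gbp2 also without CHIR-99021 replicate 2 (between 0.102 and 0.158). The calls for Stat2 and Oas2 were lost without any 1 of several libraries of MEF, CHIR-99021 and LY-364747 (edgeR adjusted p between 0.0634 and 0.265), and the Oas2 value ran from -4.67 to -1.49 between the fits without CHIR-99021 replicate 2 and without replicate 1. Without LY-364747 replicate 1 or CHIR-99021 replicate 1, 2 members were lower, and without CHIR-99021 replicate 2 there were 4. Without either carbidopa replicate there were 11.

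LY-364747 and carbidopa could not be told apart by the test. Of the 37 members 0 were called in either direction by edgeR, against 0.0132% of all genes, while 7 were lower with LY-364747 at an unadjusted p under 0.05 and DESeq2 called 0. The members' median was -0.34, against -0.010 for all genes, and 30 of 37 values were below 0. This difference moved with carbidopa replicate 1, since the median was -0.06 without it and -0.44 without carbidopa replicate 2. The calls in this comparison also depended on which carbidopa library was left out. The share of all genes called without carbidopa replicate 2 is not given here, so those calls are not read as a result about the members. The largest difference was that of Oas1a, at -1.51 (SE 0.47, edgeR adjusted p = 0.519), and Ifit2 and Ifit3 differed by -0.25 (SE 0.10) and -0.38 (SE 0.14) with the same adjusted p.

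**Figure D4:**
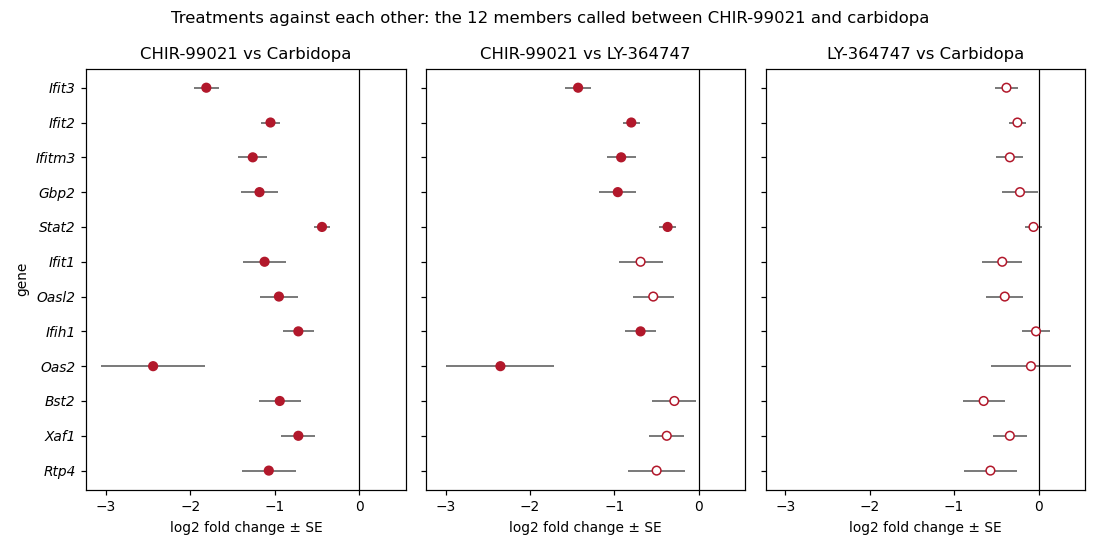
Log2 fold change with its standard error between treatments, for the 12 members that differed between CHIR-99021 and carbidopa, which chose the genes shown; filled points have an adjusted p under 0.05 by edgeR's quasi-likelihood test. The values of CHIR-99021 against carbidopa run from -2.44 (Oas2) to -0.44 (Stat2), 7 of the 12 are also filled against LY-364747, and the LY-364747 against carbidopa panel holds open points alone.

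The genes around the pathway are given next, and their counts are to be read against the shares of all genes tested, which against MEF were 18.0% higher and 19.7% lower with carbidopa, 13.7% and 17.2% with LY-364747, and 18.7% and 20.1% with CHIR-99021, with medians of 0.037, 0.028 and 0.043. The interferons themselves were close to absent. The 13 interferon genes searched (Ifnb1, Ifna1, Ifna2, Ifna4, Ifna5, Ifna11, Ifna12, Ifnk, Ifne, Ifng, Ifnl2, Ifnl3 and Ifnz) had 0 to 4 reads in any library, and Ifnb1, the interferon that fibroblasts make first, had 0 in all 8, where a count of 0 allows up to 3 reads. Il15, a cytokine on the same list that is induced by interferon, was higher with each compound (log2 fold changes of 1.53, 1.82 and 1.14 for carbidopa, LY-364747 and CHIR-99021, with edgeR adjusted p = 3.25e-04, 9.85e-05 and 0.00243). Of the 17 genes for receptors and JAK-STAT signalling, 3 rose and 5 fell with carbidopa, 3 and 4 with LY-364747, and 4 and 5 with CHIR-99021, with medians of 0.03, -0.10 and -0.06. Counts of 3 to 5 in 17 lie close to the shares of all genes. Without carbidopa replicate 1, 2 rose and 4 fell with carbidopa. The chains of the interferon gamma receptor went apart. Ifngr1, the ligand-binding chain, rose by 0.60, 0.50 and 0.98 on the log2 scale, and Ifngr2, the signalling chain, fell, with values of -0.69, -0.78 and -0.79 in the same order. Stat3 (-0.92, -0.84 and -0.72) and Ptpn6, a phosphatase of blood cells (-1.23, -1.36 and -2.82), fell.

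Among 49 tested of 55 further interferon-induced genes, 13 rose and 13 fell with carbidopa, 7 and 12 with LY-364747, and 4 and 21 with CHIR-99021. The medians of the list were 0.24, 0.04 and -0.38. Without carbidopa replicate 1, 9 of 50 rose and 10 fell with carbidopa, with a median of 0.03, while 14.4% of all genes rose and 18.0% fell. Against carbidopa, CHIR-99021 lowered 21 of the 49 (8.08% of all genes; 19 of 50 without carbidopa replicate 1), and against LY-364747 it lowered 15 (7.69% of all genes). The PYHIN genes Ifi203 and Ifi205, members of a family that binds DNA, rose most clearly. Ifi203 was at 18.4 and 15.9 CPM in MEF, 152 and 190 with carbidopa, 213 and 163 with LY-364747, and 70.8 and 80.7 with CHIR-99021, with log2 fold changes of 3.32, 3.46 and 2.15. Ifi205 rose by 4.28, 3.88 and 3.35, although 16.6% of its 75-base exon words are shared with Ifi211. Pml, the scaffold of nuclear bodies, rose by 1.46, 1.61 and 1.51, and Slfn5 fell, with values of -2.24, -2.40 and -3.31. Like Ifit2, Ifi203 was lower with CHIR-99021 than with carbidopa (log2 fold change -1.17, SE 0.16, edgeR adjusted p = 9.41e-04).

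Of 18 genes of the MHC class I pathway, 9 fell with carbidopa, 11 with LY-364747 and 12 with CHIR-99021, against 19.7%, 17.2% and 20.1% of all genes, with medians of -0.37, -0.58 and -0.71. Without carbidopa replicate 1, 13 fell with carbidopa and the median was -0.50. B2m, the light chain of class I molecules, was at 2238 and 2454 CPM in MEF, 1833 and 1661 with carbidopa, 1638 and 1324 with LY-364747, and 853 and 1093 with CHIR-99021. H2-K1, a heavy chain (log2 fold changes of -0.63, -0.91 and -1.41), and H2-Q4 (-0.76, -1.12 and -2.21) fell with each compound. Erap1, which trims peptides, fell by 1.13, 1.00 and 1.53 on the log2 scale. Sharing of 75-base exon words with related genes reached 20.7% for H2-Q4. Of the nucleic acid sensing genes 21 of 23 were tested, of which 5 rose and 7 fell with carbidopa, 4 and 4 with LY-364747, and 4 and 8 with CHIR-99021. The medians of this list were -0.07, -0.09 and -0.09, and the counts with LY-364747 lie close to the shares of all genes. When carbidopa replicate 1 was left out, 5 rose and 6 fell with carbidopa. Tlr4, the receptor for lipopolysaccharide, rose by 1.38, 1.68 and 0.64, whereas Tlr7 (-1.95, -1.96 and -4.61) and Irf8 (-0.76, -1.16 and -2.51) fell. Tlr7 and Irf8 are known for their expression in macrophages and dendritic cells. For NF-kappaB inflammatory genes (12 of 16 tested) the counts were 3 rising and 4 falling with carbidopa, 1 and 5 with LY-364747, and 1 and 6 with CHIR-99021, with medians of -0.25, -0.21 and -0.33. Carbidopa then raised 2 and lowered 4 when its replicate 1 was left out. Nfkbia, the inhibitor that NF-kappaB induces, rose by 1.37, 1.14 and 0.84, and Relb (-0.92, -1.36 and -0.97) and Icam1 (-0.43, -0.47 and -0.75) fell. Cxcl5 passed the filter through the MEF libraries alone (47 and 79 reads, against 0 to 10 in treated libraries), so it had to be lower with each compound. Its fitted values of -3.33, -4.91 and -4.37 are a description, and the falling counts of this list include it.

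Markers of cell types were counted in the same libraries, and their relation to the members was not tested. The 19 macrophage markers, none of which was at 0 in any group, summed to 1546 to 1596 CPM in MEF, 446 to 458 with carbidopa, 334 to 342 with LY-364747 and 118 to 123 with CHIR-99021. Of the 18 tested, 16 were lower with carbidopa, 16 with LY-364747 and 17 with CHIR-99021 than in MEF, and 16 were lower with carbidopa without its replicate 1. Summed over all 39 genes, the level was 1016 and 1021 CPM in MEF, 1311 and 1145 with carbidopa, 1134 and 1033 with LY-364747, and 766 and 767 with CHIR-99021. Ifit2 and Ifit3 together went from 122 and 125 CPM in MEF to 404 and 355 with carbidopa, 314 and 301 with LY-364747, and 149 and 154 with CHIR-99021. This sum was lowest in MEF through Ifit2, since Ifit3 was lowest with CHIR-99021. The other 37 genes summed to 894 and 896 CPM in MEF, 907 and 790 with carbidopa, 819 and 733 with LY-364747, and 617 and 613 with CHIR-99021. Abundant genes weigh most in this sum. Ifitm3 alone went from a mean of 234 CPM in MEF to 90.6 with CHIR-99021, and Stat2 from 96.2 to 52.3. The sum therefore does not show that the 37 genes fell together.

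**Figure D5:**
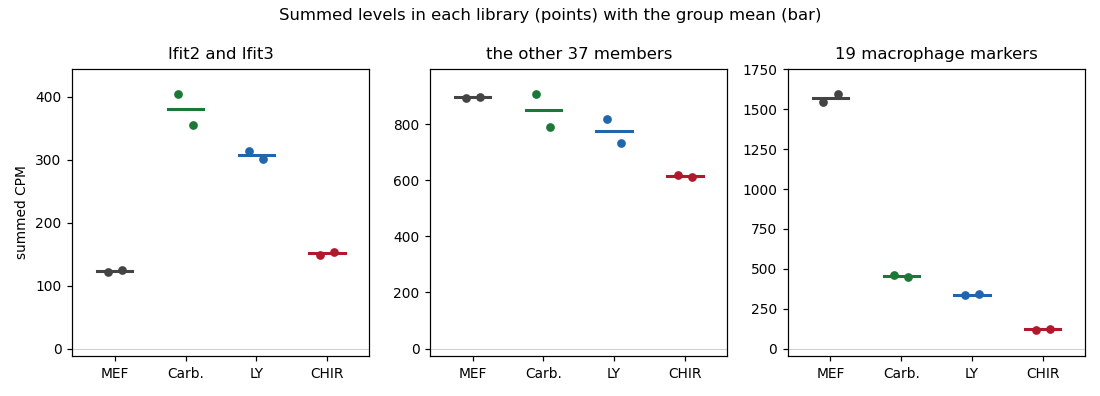
Summed CPM in each library (points) with the mean of the group (bar), for Ifit2 and Ifit3, for the other 37 members and for 19 macrophage markers. The sum of Ifit2 and Ifit3 is lowest in MEF (122 and 125 CPM), the sum of the other members is lowest with CHIR-99021 (617 and 613 CPM), and the macrophage markers are highest in MEF (1546 to 1596 CPM) and lowest with CHIR-99021 (118 to 123 CPM).

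The 11 fibroblast markers, detected in all groups, summed to 35069 to 35423 CPM in MEF, 8239 to 9968 with carbidopa, 11348 to 11798 with LY-364747 and 10839 to 10937 with CHIR-99021, and 9 of the 11 were lower in each treatment. The labels call the treated cells hepatic-like, which the study based on morphology, PCR of hepatocyte genes, staining for fat and glycogen, and clustering. In these counts the 10 hepatocyte markers together had 29 to 30 reads per library with carbidopa, 24 to 28 with LY-364747 and 19 to 24 with CHIR-99021. In MEF they had 4 to 9, and Cyp3a11, Serpina1a and Tat were at 0 throughout. Epithelial markers summed to 3.1 to 4.16 CPM in MEF and 9.82 to 21.4 CPM in treated libraries. Most of this was Krt19 (2.32 to 3.2 CPM in MEF, 6.09 to 19.2 in treated libraries). Epcam, Cdh1 and Krt8 had 0 to 6 reads per library, and 3 of the 6 markers could be tested. Lymphocyte and NK cell markers had 0 to 6 reads in all. Of 7 markers listed for plasmacytoid dendritic cells, which are strong producers of interferon, Siglech and Klk1 had 0 reads in every library. Tcf4 (159 to 229 CPM), Bst2 (15.2 to 40.3 CPM) and Irf8 (12 to 77 reads) were detected, and Ccr9 and Ly6d had at most 11 and 7 reads. Endothelial markers summed to 11.5 to 19.6 CPM.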

How the data were processed

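RNA was sequenced as 150-bp paired-end libraries from MEFs in 4 groups of 2 libraries. The authors deposited raw read counts per gene, whole numbers with an Ensembl identifier and symbol in each row; the submitters' processing notes name bcl2fastq, STAR 2.4.2a, DESeq2 and build mm10. The library kit differs between the labels and the methods. The study's methods name featureCounts for the counting. Its strand setting and its handling of reads that match several genes are not given in the sources used here. Counts of members with near copies or overlapping exons are therefore uncertain. Besides the overlaps described above, Rtp4 shares 13.9% of its exon bases with Gm45338, Gbp7 11.3% with Gm43802 and Ifi35 16.8% with Gm11626. Smaller overlaps are not listed. Groups were taken from the sample titles. The table held 0 columns of other samples and 0 rows that named no gene. Of the identifiers, 99.6% matched GENCODE release M21, from which positions and exon lengths were taken.

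Counts were normalised by TMM and tested with edgeR 4.0.16 (R 4.3.3, quasi-likelihood F test, filterByExpr, group as the only term). All 8 libraries entered 1 fit and shared 1 estimate of the spread, with a coefficient of biological variation of 11%. P-values were adjusted by Benjamini-Hochberg over all 15154 genes tested, with a threshold of 0.05. Standard errors were the absolute log2 fold change divided by the square root of F. The procedure was also run on simulated counts with few changed genes, all in 1 group. That setting differs from these data, in which many genes were called, so no conclusion is drawn from it. Totals of 15039566 to 20504338 counts per library leave members with few reads with wide errors, and intervals on pooled reads cover counting error only (95%, exact). Alternatives were DESeq2 1.42.0, edgeR with RLE size factors, no filter, at least 10 counts in every library, only the 2 groups compared, the replicate number as a block, and each library left out in turn.

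The members and the gene lists were chosen with earlier results of these data known, so no test of a list was made; lists are given by counts and medians beside those of all genes. Counts without Oasl1, and list counts without carbidopa replicate 1, were added after seeing the data. Library values are printed for up to 8 called members per direction with the largest fold change in each comparison with MEF and up to 8 with the smallest p in each comparison between treatments, and other members by ranges, counts and single values; Herc6, Irf1, Irf9, Isg15, Ifih1 and Bst2 were added for their roles after their values were seen. Up to 4 called genes with the smallest p are named from each other list. Some genes of the pathway and marker lists passed the filter through MEF alone or through treated libraries alone. Examples are Cxcl5, Cxcl1, H2-Q7 and Cx3cr1 through MEF, and Cxcl10 and Cldn4 through treated libraries. Their direction against MEF was fixed in advance, and the lists keep them.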

Additional observations from a re-analysis of the deposited data

How the results depend on the processing

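Of 57 results in which a member was called in a comparison (3 of them for Oasl1), 23 were called under every alternative that gave a value and 0 changed direction. DESeq2 lost 5 of the 57, RLE size factors 0, no filter 3 and fitting only the 2 groups compared 9. A minimum of 10 counts in every library left no value for Oas1a, Oas2, Oasl1 and Psmb8. With only the 2 groups compared, 3 members were higher with carbidopa than in MEF (6 in the fit of all libraries), 12 lower with LY-364747 (7) and 7 lower with CHIR-99021 than with carbidopa (12). With at least 10 counts, 3 were lower with carbidopa (5) and 4 with LY-364747 (7). With no filter, 3 were lower with LY-364747 than with carbidopa (0). For most fits without 1 library, the share of all genes called is not given here. Those fits leave an arm of 1 library, whose spread was taken to be that of the other groups. They gave 3 to 10 higher and 1 to 6 lower members for carbidopa against MEF, 2 to 4 higher and 3 to 10 lower for LY-364747, and 1 to 4 higher and 9 to 16 lower for CHIR-99021. CHIR-99021 against carbidopa gave 0 to 1 higher and 3 to 19 lower, CHIR-99021 against LY-364747 2 to 11 lower, and LY-364747 against carbidopa 0 to 1 higher and 0 to 13 lower.

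The replicate numbers were not shown to pair the samples, since the correlations of same-numbered deviations ran from -0.161 (carbidopa and LY-364747) to 0.128 (carbidopa and CHIR-99021). With the replicate block, 7 members were higher and 6 lower with carbidopa, 4 and 7 with LY-364747, and 3 and 14 with CHIR-99021, each against MEF; 12 were lower with CHIR-99021 than with carbidopa and 7 than with LY-364747, and no call of a named member was lost. Members that averaged under 25 reads per library (Cmpk2, Dhx58, Isg20, Mx2, Oasl1, Psmb9 and Rsad2) allow differences to be seen only when they are large.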
